A study of Mus musculus with 10 samples.

Results

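The 10 genes described here are immediate early response genes, the genes that cells transcribe within minutes of a stimulus without first making new protein. They were taken by name from the deposited count tables: Fos, Fosb, Jun, Junb, Jund, Egr1, Atf3, Ier2, Dusp1 and Nr4a1, which are 10 of the 23930 genes measured. All 10 were found, and 9 of them were among the 12719 genes with enough reads to test. Jund, with 0 to 13 reads in a library, was below that limit.

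The RNA was of epididymal white adipose tissue, a visceral fat pad of the male, from 10 C57BL/6 mice. The mice were 18 weeks old, and all of them, controls included, had been on a high sucrose/high fat diet during the last 8 weeks. There were 5 wild-type mice (Srgn+/+) and 5 mice without serglycin (Srgn-/-), called Srgn-knockout below. Serglycin is the proteoglycan that packs the contents of secretory granules in mast cells, cytotoxic lymphocytes and macrophages. Each mouse gave 1 library, and the libraries are numbered within each genotype only to name them. Whole fat was measured, so fewer cells of a type and less RNA per cell cannot be told apart.

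Immediate early genes are switched on by transcription factors that are already present, chiefly serum response factor with its ternary complex partners and CREB, after these are activated by MAP kinases, calcium or cyclic AMP. Their messages are short-lived, so the level in a cell follows stimuli that reached it shortly before. In whole fat a level depends on cell content too, and no stimulus was measured here. Several encode subunits of AP-1, the dimeric factor of Fos and Jun proteins, and others encode brakes on the same kinases. In fat, macrophages, preadipocytes, endothelial cells and adipocytes can all make them.

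To show what the regulatory DNA of these genes holds, the 250 bases before the start of transcription are printed for 3 genes that moved together across the mice (Fos, Atf3 and Junb), for Jun, whose r with Fos and Atf3 was near 0, and for Dusp1, which holds the full cyclic AMP response element. The sequences are from RefSeq, build GRCm38.p6, another build than that of the count tables, and 8 of the 10 genes had one. They are written 5′ to 3′ on the strand of the gene. The Fos stretch is chr12:85473640-85473889 on the plus strand, and those of Atf3 (chr1:191183334-191183583), Junb (chr8:84978749-84978998), Jun (chr4:95052223-95052472) and Dusp1 (chr17:26508473-26508722) lie on the minus strand. Capitals mark the CREB site TGACGTCA, its core TGACG on either strand (CGTCA when read on the other one) and the TATA box TATAAA.
Fos: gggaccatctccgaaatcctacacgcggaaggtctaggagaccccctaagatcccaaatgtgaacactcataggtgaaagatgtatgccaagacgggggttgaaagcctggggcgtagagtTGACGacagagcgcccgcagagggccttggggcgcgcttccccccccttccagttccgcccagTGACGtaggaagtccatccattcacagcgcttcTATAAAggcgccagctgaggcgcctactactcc
Atf3: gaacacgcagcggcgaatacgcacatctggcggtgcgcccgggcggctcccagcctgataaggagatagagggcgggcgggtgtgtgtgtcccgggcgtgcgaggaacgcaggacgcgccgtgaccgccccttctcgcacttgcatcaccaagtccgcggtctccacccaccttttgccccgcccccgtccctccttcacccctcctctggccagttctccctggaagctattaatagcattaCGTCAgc
Junb: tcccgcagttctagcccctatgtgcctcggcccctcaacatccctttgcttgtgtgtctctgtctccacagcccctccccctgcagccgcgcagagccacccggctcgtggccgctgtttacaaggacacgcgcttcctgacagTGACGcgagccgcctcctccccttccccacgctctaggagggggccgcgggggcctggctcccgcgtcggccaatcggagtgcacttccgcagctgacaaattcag
Jun: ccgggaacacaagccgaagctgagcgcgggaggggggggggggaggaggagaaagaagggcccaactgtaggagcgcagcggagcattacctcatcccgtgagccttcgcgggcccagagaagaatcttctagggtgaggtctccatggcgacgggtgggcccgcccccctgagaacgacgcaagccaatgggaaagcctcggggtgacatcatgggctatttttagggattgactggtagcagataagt
Dusp1: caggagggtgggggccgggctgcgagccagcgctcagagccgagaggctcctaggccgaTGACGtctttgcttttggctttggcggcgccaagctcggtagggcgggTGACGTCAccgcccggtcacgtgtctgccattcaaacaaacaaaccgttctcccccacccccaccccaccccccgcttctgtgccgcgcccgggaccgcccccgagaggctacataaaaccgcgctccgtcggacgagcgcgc

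The core TGACG was found in 6 of the 8 promoters (Fos, Fosb, Junb, Atf3, Dusp1 and Nr4a1), against 17.8% of 32851 RefSeq promoter windows of the same length, both strands searched. Any TGACGTCA also counts as a TGACG. The full TGACGTCA was found in Dusp1 alone among the 8, against 1.55% of all windows. The Egr site GCGGGGGCG was in Fosb and Nr4a1 (2.57% of windows), the Sp1 box GGGCGG, which overlaps it in part, was in 6 of 8 (32.7%), TATAAA was in Fos alone (12.4%) and CCAAT was in 2 of 8 (33.8%). The AP-1 site TGACTCA (4.46% of windows) and the CArG box bound by serum response factor (1.47%) were in none of the 8 windows. A match of letters is no measure of binding, and the lack of one speaks of this window alone. In the GENCODE M21 annotation Jun, Junb, Jund and Ier2 are single-exon genes, while Fos and Atf3 have 4 exons.

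Libraries held 7824764 to 10757779 reads, of which the 10 genes took 2324 to 5496. Reads of the 10 genes did not differ between genotypes beyond their spread (wild-type 4169 ± 1286, Srgn-knockout 3449 ± 685, mean ± SD of 5 each; exact permutation test, two-sided, p = 0.310). Levels below are normalized CPM (read counts scaled to a common library size), and since each gene is read at 1 short amplicon of its own, levels of different genes are not compared. The labels held: Srgn had 776 to 1301 reads in each wild-type library and 0 to 12 in each Srgn-knockout library. The fat itself was seen in the adipocyte markers, whose 10 genes summed to 32336 to 40287 CPM (wild-type) and 31468 to 38954 CPM (Srgn-knockout). Wild-type 4, Srgn-knockout 3 and Srgn-knockout 5 carried epididymis RNA, with 777, 6696 and 1184 CPM summed over 12 epididymis genes against 0.668 to 22.6 CPM in the other libraries. Results are therefore given without these 3 libraries too.

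Between the genotypes, no immediate early gene passed the test. With the edgeR quasi-likelihood test and Benjamini-Hochberg adjustment over all genes, 0 of 9 had an adjusted p under 0.05, where the background was 0.00786% of tested genes, a single gene, Srgn. At an unadjusted p under 0.05, 0 of 9 passed, against 12.8% of tested genes (6.77% higher and 6.06% lower in Srgn-knockout). The 2 groups of mice overlapped for all 10 genes, and 2.77% of tested genes had groups that did not. Of the 9, 6 were lower and 3 higher in Srgn-knockout, with a median log2 difference of -0.07 against -0.00 over all tested genes. DESeq2 and limma-voom with quality weights likewise called 0 of 9. The edgeR fit without the 3 libraries that carried epididymis RNA called 0 of 10, since Jund was tested there too.

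**Figure D1:**
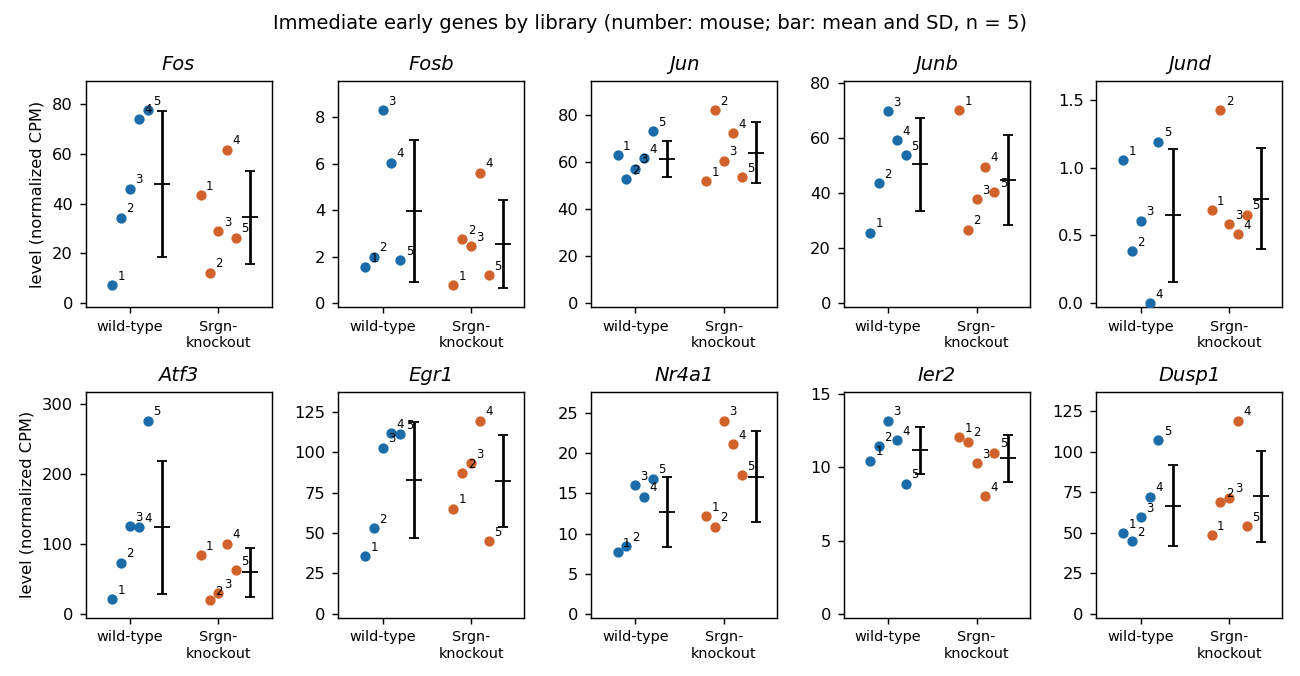
Level of each immediate early gene in each library (vertical axis, normalized CPM, 1 panel per gene with its own scale); each point is 1 mouse, labelled with its number, and the bar beside each group is the mean with its SD (n = 5). The groups overlap in all 10 panels, and Fos, Fosb and Atf3 cover 10.6-fold or more between the lowest and the highest mouse.

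The Fos family came first among the AP-1 subunits. Fos, which cannot pair with itself and binds DNA with a Jun partner, was at 7.29, 34.5, 46.0, 74.2 and 77.8 CPM in wild-type 1 to 5. In Srgn-knockout 1 to 5 it was at 43.4, 12.2, 28.9, 61.8 and 26.3 CPM. Wild-type 1 was the lowest mouse of all and Srgn-knockout 2 the next, and the other 8 lay between 26.3 and 77.8 CPM. The means were 48.0 ± 29.2 and 34.5 ± 18.8 CPM (SD, n = 5), a log2 difference of -0.47 ± 0.56 (SE; edgeR adjusted p = 0.755) with a 95% interval of -1.77 to 0.83. It was -0.22 without wild-type 5 and -0.78 without Srgn-knockout 4.

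Fosb, the close relative of Fos, was scarce. It stood at 1.54, 2.0, 8.31, 6.03 and 1.85 CPM in the wild-type mice and at 0.783, 2.74, 2.45, 5.6 and 1.20 CPM in Srgn-knockout, or 8 to 82 reads in a library. Wild-type 3, wild-type 4 and Srgn-knockout 4 were high, and the other 7 were at 2.74 CPM or less. Its log2 difference was -0.64 ± 0.60 (SE; edgeR adjusted p = 0.679, 95% interval -2.02 to 0.75). The value was -0.17 without wild-type 3 and -1.13 without Srgn-knockout 4, so it rests on single mice.

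Jun, the subunit that can pair with itself as well as with Fos proteins, varied little between mice. It was at 63.0, 52.8, 57.3, 61.7 and 73.3 CPM in the wild-type mice and at 51.9, 82.3, 60.6, 72.3 and 53.7 CPM in the knockouts. The highest mouse, Srgn-knockout 2, was 1.59-fold above the lowest, Srgn-knockout 1. The log2 difference of 0.06 ± 0.14 (SE; edgeR adjusted p = 0.874) had the narrowest 95% interval of the 9 genes, -0.25 to 0.38.

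Junb, a Jun relative that activates less strongly and can oppose Jun, was at 25.6, 43.5, 69.7, 59.1 and 53.7 CPM in wild-type. In Srgn-knockout it was at 70.1, 26.7, 37.6, 49.5 and 40.2 CPM. Its lowest mice were wild-type 1 and Srgn-knockout 2, the same mice that were lowest for Fos. The log2 difference was -0.16 ± 0.29 (SE; edgeR adjusted p = 0.845, 95% interval -0.83 to 0.50), and it came to -0.01 without wild-type 3 and -0.38 without Srgn-knockout 1. Jund, usually the steadily expressed Jun protein of resting cells, was close to the limit of detection, at 0 to 1.19 CPM in the wild-type mice and 0.509 to 1.43 CPM in the knockouts. The 0 was in wild-type 4, where 3 reads would be 0.326 CPM.

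Atf3, a stress-induced factor of the ATF and CREB family that pairs with Jun proteins and restrains inflammatory genes in macrophages, had the largest difference between genotypes. It was at 20.9, 73.3, 125, 124 and 277 CPM in the wild-type mice and at 84.3, 19.8, 29.8, 101 and 62.2 CPM in the knockouts. Wild-type 5 stood far above every other mouse, the next being wild-type 3, while wild-type 1 was about as low as Srgn-knockout 2. The means were 124 ± 95.5 and 59.3 ± 34.5 CPM (SD, n = 5), a log2 difference of -1.06 ± 0.62 (SE). That difference did not pass (edgeR adjusted p = 0.504), and its 95% interval was -2.49 to 0.37. With single mice left out it ran from -1.33 to -0.53, the latter without wild-type 5.

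Egr1, a zinc-finger factor that serum, growth factors and macrophage activation induce, was at 35.8, 53.2, 103, 112 and 111 CPM in the wild-type mice and at 65.1, 87.1, 93.2, 119 and 45 CPM in Srgn-knockout. In each genotype 2 mice were at 65.1 CPM or less and 3 were at 87.1 CPM or more. The means, 82.9 ± 35.8 and 82.0 ± 28.3 CPM (SD, n = 5), were nearly equal, and the log2 difference was -0.01 ± 0.35 (SE; edgeR adjusted p = 0.994). The 95% interval of -0.81 to 0.79 allows a change in either direction.

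Nr4a1, an orphan nuclear receptor that macrophages, T cells and adipocytes induce quickly, was the member most above wild-type in Srgn-knockout. It stood at 7.68, 8.40, 16.0, 14.6 and 16.8 CPM in the wild-type mice and at 12.1, 10.9, 24.1, 21.1 and 17.3 CPM in Srgn-knockout. The 3 highest mice were Srgn-knockout 3, 4 and 5, the 2 lowest were wild-type 1 and 2, and the others were mixed. The log2 difference of 0.44 ± 0.28 (SE; 95% interval -0.21 to 1.09) did not pass (edgeR adjusted p = 0.535).

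Ier2, a small nuclear protein encoded by a gene without introns, was at 10.5, 11.5, 13.2, 11.8 and 8.88 CPM in the wild-type mice and at 12, 11.7, 10.3, 8.02 and 11 CPM in Srgn-knockout. All 10 mice lay within 1.64-fold, and the log2 difference was -0.07 ± 0.16 (SE; edgeR adjusted p = 0.885). Dusp1, the phosphatase that switches MAP kinases off and so closes the response, was at 49.7, 44.9, 59.5, 72.2 and 107 CPM in wild-type. In Srgn-knockout it was at 48.6, 68.9, 71.5, 119 and 53.9 CPM. Wild-type 5 and Srgn-knockout 4 were the high mice, 1 in each genotype, and the log2 difference was 0.12 ± 0.28 (SE; edgeR adjusted p = 0.884).

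The genes differed in how much they varied between mice of 1 genotype. The biological coefficient of variation, the spread between mice that is left after counting error, was 0.652 for Atf3, 0.632 for Fosb and 0.605 for Fos. These were at the 98.2, 97.9 and 97.6 percentiles of all tested genes. Egr1 (0.381, percentile 87.0), Junb (0.320, 79.9), Dusp1 (0.316, 79.3) and Nr4a1 (0.312, 78.6) formed a middle group. Ier2 (0.177, 43.5) and Jun (0.171, 40.5) varied less than most tested genes. These percentiles take no account of level, with which the coefficient changes. Its trend over all tested genes was 0.394 at the level of Fosb, against 0.186 to 0.240 at those of Atf3, Fos and the middle group. The median SE of a log2 difference over all tested genes was 0.16, while that of Atf3 was 0.62, so differences in Atf3, Fos and Fosb had to be larger to be detected.

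**Figure D2:**
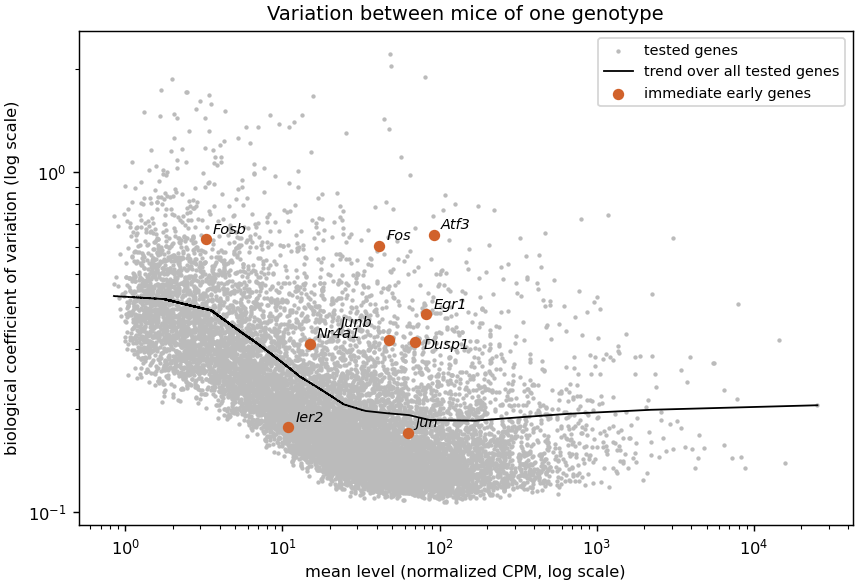
Biological coefficient of variation (vertical axis, log scale) against mean level (horizontal axis, normalized CPM, log scale) for the 12719 tested genes (grey), with their trend as a line and the 9 tested immediate early genes in orange. Atf3 at 0.652, Fosb at 0.632 and Fos at 0.605 lie above the trend, and Jun and Ier2 lie below it.

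Across the 10 mice, Fos, Atf3 and Junb rose and fell together. Correlations of log2 CPM were computed for all 45 pairs of the 10 genes, each with a two-sided permutation test of 100000 resamples, and p-values were adjusted over the 45. Of the pairs, 29 had a positive Pearson r, 3 passed an adjusted p of 0.05, and 10 had an unadjusted p under 0.05. Fos and Atf3 had r = 0.91 (adjusted permutation p = 0.0049) and Spearman rho = 0.94 (adjusted permutation p = 0.0085). Without wild-type 1 and Srgn-knockout 2, the mice farthest from the median, r was 0.84. Centred on the genotype means it was 0.93 (adjusted permutation p = 0.025), and it passed without any single mouse, with r from 0.88 to 0.94.

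Fos and Junb had r = 0.86 (adjusted permutation p = 0.036) and rho = 0.78 (adjusted permutation p = 0.091), and Junb and Atf3 had r = 0.84 (adjusted permutation p = 0.048) and rho = 0.83 (adjusted permutation p = 0.066). Both relations rested largely on wild-type 1 and Srgn-knockout 2: without them r was 0.56 for Fos with Junb and 0.60 for Junb with Atf3. Centred on the genotype means, r was 0.86 and 0.85, and neither passed over the 10 mice (adjusted permutation p = 0.0885 for both). Without the 3 libraries that carried epididymis RNA, r was 0.95 for Fos with Atf3, 0.86 for Fos with Junb and 0.83 for Junb with Atf3, and 0 pairs passed over the 7 mice left. The number of pairs past the threshold fell from 3 to 1 when wild-type 1, 2 or 4 or Srgn-knockout 3, 4 or 5 was left out, and to 2 without wild-type 3. Without Srgn-knockout 2 it stayed at 3 but with other pairs: Fos with Junb (adjusted permutation p = 0.0763) and Junb with Atf3 (0.0833) no longer passed, and Fos with Egr1 and Jun with Dusp1 did (0.0315 for both).

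Such correlations are common in these libraries. Of all tested genes, 8.30% had r of at least 0.8 with Atf3, 6.93% with Junb and 6.81% with Fos, but under 0.4% with Egr1, Dusp1, Nr4a1, Fosb, Jun or Ier2. An absolute r as high as that of Fos with Atf3 was reached by 1.30% of tested genes with Fos and by 2.98% with Atf3. For Fos with Junb the shares were 4.40% and 4.75%, and for Junb with Atf3 they were 7.33% and 8.91%.

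Outside Fos, Atf3 and Junb no pair passed over all 10 mice. Egr1 and Dusp1 had r = 0.78 (adjusted permutation p = 0.096) and rho = 0.85 (adjusted permutation p = 0.064), with r = 0.84 without wild-type 1 and Srgn-knockout 5. An absolute r that high was rare here, reached by 0.645% of tested genes with Egr1 and 0.904% with Dusp1. Both genes also ran against the total number of reads (r of -0.63 and -0.87). The part of depth in this pair was not tested. Jun and Dusp1 had r = 0.72 (adjusted permutation p = 0.150), Fos and Egr1 0.70, Fosb and Egr1 0.68, and both Dusp1 and Egr1 had 0.65 with Nr4a1. The r of Egr1 with Nr4a1 was 0.22 without wild-type 1 and 2, and that of Dusp1 with Nr4a1 was 0.45. Without the 3 libraries that carried epididymis RNA these were 0.92 and 0.82, where 0 pairs passed over the 7 mice left. The lowest r, -0.75 between Ier2 and Dusp1 (adjusted permutation p = 0.115), was 0.0087 without wild-type 5 and Srgn-knockout 4, the high mice of Dusp1. Jun had r = -0.11 with Fos and -0.12 with Atf3.

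**Figure D3:**
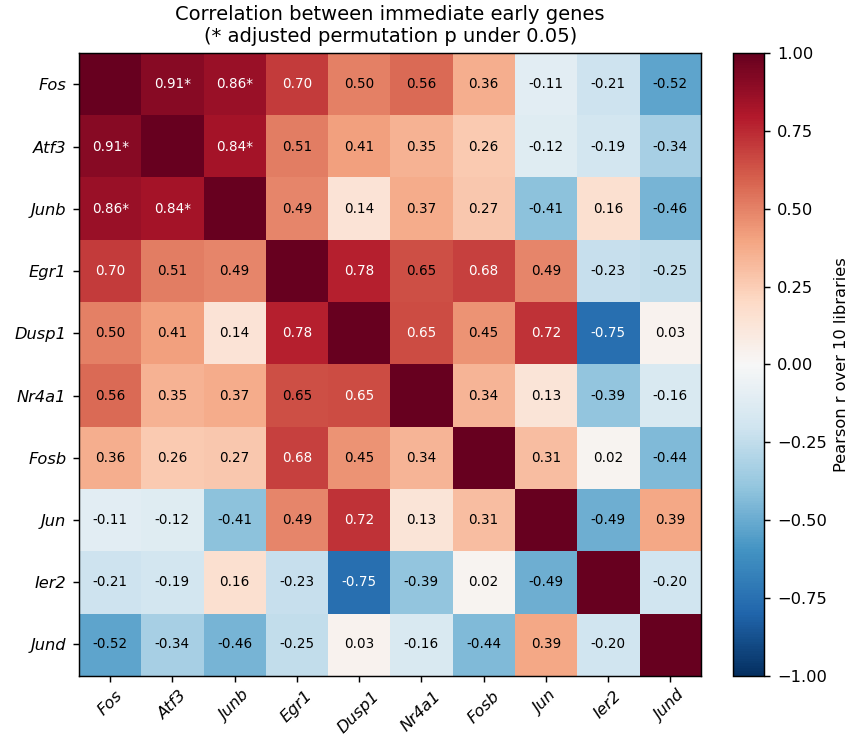
Pearson r of log2 CPM over 10 libraries for each pair of immediate early genes (red positive, blue negative), with an asterisk where the adjusted permutation p is under 0.05. The 3 marked pairs join Fos, Atf3 and Junb (0.91, 0.86 and 0.84), and Egr1 with Dusp1 (0.78) is the highest pair without a mark.

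Markers of other cells were set beside these genes, since whole fat was measured. The macrophage list mean is the average over 11 tested macrophage genes of log2 CPM centred on each gene. It followed Atf3 with r = 0.96 (adjusted permutation p = 0.012) and rho = 0.89 (adjusted permutation p = 0.062), and r was 0.92 without wild-type 1 and Srgn-knockout 2. It followed Junb with r = 0.87 and rho = 0.87, and Fos with r = 0.86 and rho = 0.81 (adjusted permutation p of r = 0.024 for both, of rho = 0.062 and 0.082). Without the same 2 mice these were 0.72 and 0.73. The other genes had r of 0.46 (Egr1), 0.27 (Dusp1), 0.19 (Nr4a1 and Fosb), -0.05 (Ier2), -0.18 (Jun) and -0.27 (Jund). P-values here were adjusted over 220 relations, the 10 genes with 19 lists and 3 measures of the library, of which 23 passed by Pearson r and 2 by rho. The relation of Atf3 with macrophage genes passed without any single mouse, with r from 0.94 to 0.97, and was 0.95 on values centred on the genotype means (adjusted permutation p = 0.042). The 23 became 1 without wild-type 1, 3 without Srgn-knockout 2, 7 without Srgn-knockout 3 and 11 without wild-type 2. They became 12 without wild-type 5 and 14 without either wild-type 3 or Srgn-knockout 4. Without the 3 libraries that carried epididymis RNA, 0 passed over the 7 mice left, where fewer permutations lie behind each p. There r with the macrophage list mean was 0.97 for Atf3, 0.94 for Fos and 0.89 for Junb.

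**Figure D4:**
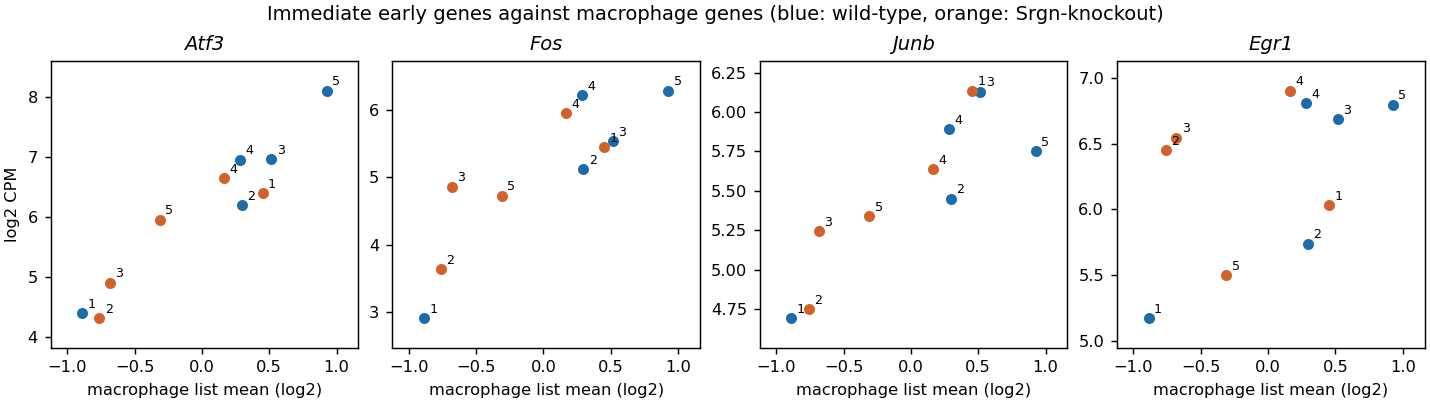
Log2 CPM of Atf3, Fos, Junb and Egr1 (vertical axes) against the macrophage list mean (horizontal axis, log2), 1 point per mouse with its number, wild-type in blue and Srgn-knockout in orange. Atf3 (r = 0.96), Junb (0.87) and Fos (0.86) rise with the macrophage genes, and Egr1 (0.46) spreads widely.

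Macrophage genes were themselves uneven between mice. The 12 genes on the list summed to 1756, 3557, 4272, 3597 and 6070 CPM for wild-type 1 to 5 and to 3611, 1871, 1817, 3274 and 2285 CPM for Srgn-knockout 1 to 5. The lowest were wild-type 1, Srgn-knockout 3 and Srgn-knockout 2, and the highest was wild-type 5, which was the highest for Atf3 too. All 11 tested macrophage genes were lower on average in Srgn-knockout, 3 had an unadjusted p under 0.05, and 0 passed after adjustment in edgeR, DESeq2 or limma-voom. Of all tested genes, 50.3% were lower and 12.8% had an unadjusted p under 0.05 in the edgeR test. The list means did not differ beyond their spread (-0.23 ± 0.53 against 0.23 ± 0.67 on the log2 scale, mean ± SD of 5 each; exact permutation test, two-sided, p = 0.286).

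Genes of some other marker lists leaned to 1 side between the genotypes, and those of others were more mixed. Over all tested genes, 50.3% were lower in Srgn-knockout and 12.8% had an unadjusted p under 0.05 in the edgeR test. All 8 tested T-cell genes and all 7 tested B-cell genes were lower on average in Srgn-knockout, with median log2 differences of -1.12 and -1.11, and 7 and 4 of them had an unadjusted p under 0.05. All 6 smooth muscle genes and 8 of 9 endothelial genes were higher, with medians of 0.45 and 0.25, and 1 and 3 had an unadjusted p under 0.05. In these lists and in the mast cell list (4 of 5 lower, median -0.23) 0 genes passed after adjustment in edgeR or limma-voom, while DESeq2 called 1 T-cell, 3 B-cell and 1 mast cell gene, all lower. The more mixed lists were those of neutrophils (2 lower and 2 higher), adipocytes (6 and 4), mesothelial cells (5 and 2) and fibroblasts (3 and 5). Their median log2 differences were -0.19, -0.03, -0.08 and 0.17. The T-cell list mean was 0.89 and 1.64 in wild-type 2 and 3, against 0.13, -0.16 and 0.05 in wild-type 1, 4 and 5. In Srgn-knockout 1 to 5 it was -0.56, -0.51, 0.06, -0.77 and -0.78. These list means were not tested between genotypes. The part of these lists in the values of the immediate early genes was not tested.

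With the macrophage list mean as a term in the edgeR fit, an alternative chosen after the data had been seen, the genotype difference of Atf3 went from -1.06 to 0.00 on the log2 scale. That of Fos went from -0.47 to 0.41 and that of Junb from -0.16 to 0.19, and none of the 9 passed for genotype. The macrophage term itself passed for 3 of the 9 genes against a background of 23.1% of tested genes: Atf3 (edgeR adjusted p = 0.000335), Junb (0.00091) and Fos (0.0172). Each unit of the list mean went with 1.90, 0.79 and 1.61 log2 units of these 3. With the macrophage list mean regressed out, 0 of the 45 pairs passed: r was 0.56 for Fos with Atf3, 0.44 for Fos with Junb and 0.0031 for Junb with Atf3. Egr1 with Dusp1 kept r = 0.76. Which cells held these messages was not tested.

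**Figure D5:**
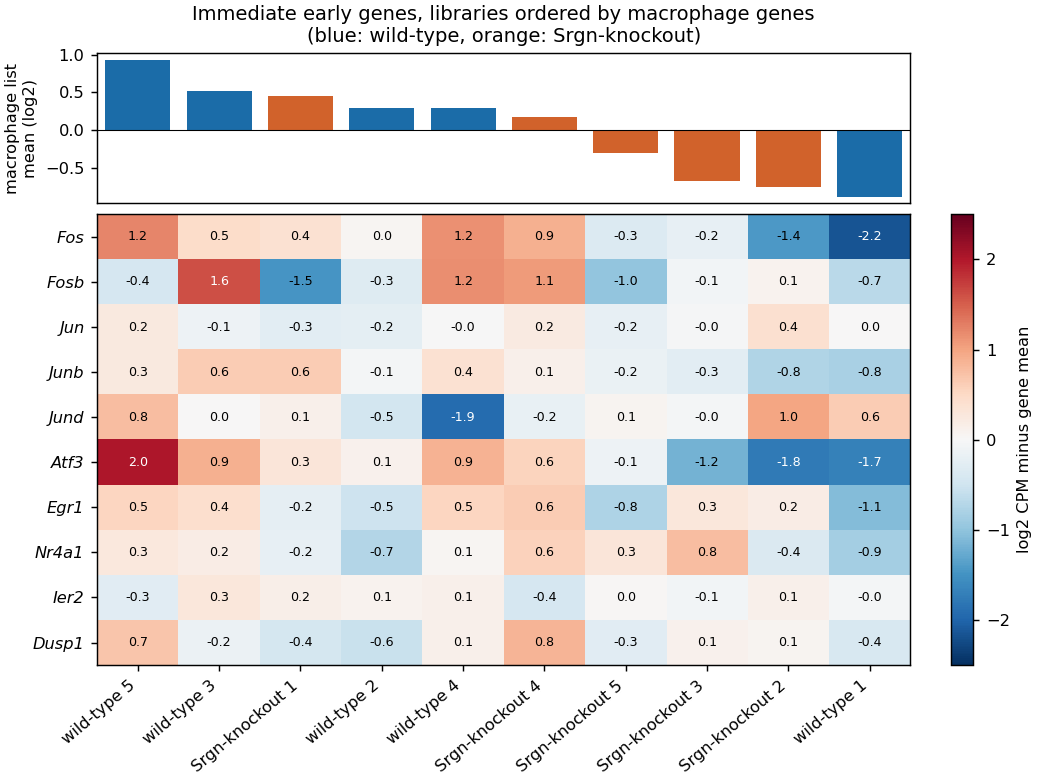
Log2 CPM minus the gene's mean over the 10 libraries (colour, printed in each cell) for each immediate early gene, with libraries ordered by the macrophage list mean, which is drawn as bars above (log2; blue wild-type, orange Srgn-knockout). Fos, Junb and Atf3 go from mostly positive on the left to negative on the right, where Srgn-knockout 2 and wild-type 1 stand, and Jun and Ier2 stay near 0.

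Other cell types and library measures moved with the same 3 genes. Junb had r = 0.88 with neutrophil genes (adjusted permutation p = 0.024), and r of -0.89 with mesothelial, -0.83 with adipocyte and -0.80 with endothelial genes, the last not past the threshold. Atf3 had r = -0.85 with endothelial genes (adjusted permutation p = 0.024) and -0.83 with adipocyte genes (adjusted permutation p = 0.040). Fos had r = 0.80 with neutrophil genes (adjusted permutation p = 0.048), and 0.59 without wild-type 1 and Srgn-knockout 2. Its r of -0.77 with mesothelial, -0.77 with endothelial and -0.73 with adipocyte genes did not pass. With T-cell genes, r lay between -0.30 and 0.45 for all 10 members. The share of reads taken by the 10 most abundant genes of a library ran against Junb (r = -0.83, adjusted permutation p = 0.024). Dusp1 ran against the total number of reads (r = -0.87, rho = -0.88, adjusted permutation p = 0.024 and 0.062). With total reads, Nr4a1, Jun and Egr1 had r of -0.75, -0.69 and -0.63 and Ier2 had 0.64, not past the threshold. By rho none of these relations passed (adjusted permutation p of 0.062 or higher). Without wild-type 1 and Srgn-knockout 2, r was 0.89, -0.74 and -0.66 for Junb with neutrophil, mesothelial and adipocyte genes and -0.79 and -0.69 for Atf3 with endothelial and adipocyte genes. Without wild-type 5 and Srgn-knockout 4, r was -0.85 for Dusp1 with total reads. The part of cell content, depth and library make-up in these relations was not tested.

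The same 3 genes also followed lists of genes related to the response. Junb had r = 0.92 with the mean of 16 known AP-1 and Egr target genes (adjusted permutation p = 0.012) and rho = 0.87 (adjusted permutation p = 0.062), with r = 0.79 without wild-type 1 and Srgn-knockout 2. Fos and Atf3 passed with these targets by Pearson r (0.83 and 0.82, adjusted permutation p = 0.040 and 0.044) but not by rho. Without the same 2 mice their r was 0.48 and 0.60. For the other members r with these targets was 0.37 for Egr1, 0.18 for Fosb, 0.17 for Nr4a1, 0.15 for Ier2 and 0.06 for Dusp1. For Jun it was -0.41 and for Jund -0.49, and the relations of these other members with the targets did not pass. Atf3 had r = 0.86 and rho = 0.95 with 31 immediate early signalling and effector genes and r = 0.85 and rho = 0.95 with 17 AP-1 partners and related bZIP factors, the 2 relations that passed by rho (adjusted permutation p = 0.014 for both). Fos and Junb ran against the mean of 14 clock genes, with r of -0.83 and -0.89 (adjusted permutation p = 0.040 and 0.024), which came to -0.42 and -0.68 without the same 2 mice. With 7 inducible heat shock genes r lay between -0.22 and 0.45 for the 10 members and 0 relations passed. Atf3, Junb and Fos had r of 0.96, 0.87 and 0.86 with macrophage genes in the same mice. The part of cell content in the relations with these lists was not tested.

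Between the genotypes, the wider response was read from lists of related genes, none of which held a gene past an adjusted p of 0.05 in edgeR, DESeq2 or limma-voom. Of 20 other immediate early transcription factors, 9 were lower and 11 higher in Srgn-knockout, with a median log2 difference of 0.06. Of them 3 had an unadjusted p under 0.05, a share to be read, here and for the lists that follow, against 12.8% of all tested genes, of which 50.3% were lower. Egr3, an Egr relative, was at 4.65 ± 1.99 CPM in the wild-type mice and 2.29 ± 0.649 CPM in the knockouts (log2 difference -1.01, edgeR adjusted p = 0.279). Hes1, a Notch-responsive repressor, had a log2 difference of 0.59 (edgeR adjusted p = 0.306), and the Krüppel-like factors Klf6 and Klf10 had -0.26 (0.376) and 0.20 (0.413).

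Of 31 immediate early signalling and effector genes, 24 were lower and 7 higher, and the median log2 difference was -0.12. The 3 with an unadjusted p under 0.05 were all lower: Btg1, an antiproliferative gene (log2 difference -0.44, edgeR adjusted p = 0.266), Ier5l (-0.53, 0.282) and Socs3, the inhibitor of cytokine signalling (-0.73, 0.357). Rhob, a small GTPase, had -0.24 (0.421). Among 12 repressors and phosphatases that limit the response, 10 were lower, with a median of -0.08. Spry2, an inhibitor of growth factor signalling, was the 1 gene of these with an unadjusted p under 0.05 (log2 difference 0.28, edgeR adjusted p = 0.388). Dusp3, Dusp10 and Spred1 had log2 differences of -0.22, -0.28 and -0.36.

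Of 17 partners of AP-1 and related bZIP factors, 12 were lower, the median was -0.20, and 3 had an unadjusted p under 0.05. Jdp2, a repressor that pairs with Jun proteins, was at 48.4 ± 13.7 CPM and 34.1 ± 4.83 CPM (log2 difference -0.50, edgeR adjusted p = 0.329). Nfe2l2, the factor of the oxidative stress response, had -0.31 (0.309), Atf1 -0.20 (0.365) and Bach1 -0.35 (0.427). Of 29 kinases and factors that act upstream, 15 were lower and 14 higher, with a median of -0.03, and 5 had an unadjusted p under 0.05. Among these, Mkl1, a coactivator of serum response factor, had -0.42 (edgeR adjusted p = 0.317), the p38 kinase Mapk14 -0.22 (0.346), the JNK kinase Mapk9 0.24 (0.360) and Rps6ka4 -0.31 (0.329).

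Of 16 known targets of AP-1 and Egr factors, 12 were lower, the median was -0.16, and 1 had an unadjusted p under 0.05. Mmp9, a matrix protease, had a log2 difference of -1.50 (edgeR adjusted p = 0.385) that came to -0.23 without wild-type 2. Cxcl2 had -0.62 (0.434), Lif 0.62 (0.589) and Hbegf 0.51 (0.527). Of 7 inducible heat shock genes, 6 were lower, with a median of -0.24, and 2 had an unadjusted p under 0.05. Hsph1, a chaperone of the Hsp110 family, was at 161 ± 34.2 CPM and 111 ± 17.0 CPM (log2 difference -0.54, edgeR adjusted p = 0.222), and Hspa1b, Hspa1a and Hspe1 had -0.94, -0.79 and -0.24. Hspa1a and Hspa1b are near-identical copies whose reads may be split between them. Of 14 clock genes, 8 were lower, with a median of -0.03. Bhlhe40, which represses clock targets, was the 1 with an unadjusted p under 0.05 (log2 difference 0.47, edgeR adjusted p = 0.360).

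The member profile of a library is the mean over the 9 tested genes of their log2 CPM scaled to an SD of 1. It was lowest in wild-type 1 (-1.11), wild-type 2 (-0.48) and Srgn-knockout 5 (-0.43) and highest in Srgn-knockout 4, wild-type 3, wild-type 4 and wild-type 5 (0.60 to 0.61). Egr1 stood closest to the mean of the other 8 (r = 0.91), followed by Fos (0.79), Atf3 (0.63), Dusp1 (0.61), Junb (0.57), Fosb (0.57) and Nr4a1 (0.56). Jun had 0.10 and Ier2 -0.37.

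The profile was then set against the listed genes, as a description over 10 libraries that share depth and cell content. An r of at least 0.6 was reached by 10.3% of tested genes outside the 10. It was reached by 9 of 20 other immediate early transcription factors, 12 of 31 signalling and effector genes, 7 of 16 AP-1 and Egr targets, 8 of 11 macrophage genes and 3 of 4 neutrophil genes. It was reached by 3 of 29 kinases and factors upstream, 3 of 17 AP-1 partners and 3 of 12 repressors and phosphatases. It was reached by 0 of 14 clock genes, 0 of 8 T-cell genes and 0 of 9 endothelial genes. Among the transcription factors Fosl2, an AP-1 subunit (r = 0.75), Egr2 (0.74) and Per1 (0.72) were the closest, and r over that list ran from -0.82 to 0.75. Among the effectors they were Cyr61, a matrix-associated signalling protein (0.90), the kinase Sgk1 (0.84) and Arc (0.83), and among the targets Spp1, which encodes osteopontin (0.85), and Plaur (0.77). The coactivator Mkl2 had 0.83, the Egr corepressor Nab2 0.79 and Hsp90ab1 0.74.

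Over all 9902 tested genes with a mean of at least 5 CPM and a standard symbol, 0.899% had r of at least 0.8 with the profile. The most alike was Akr1e1, an aldo-keto reductase (r = 0.92, rho = 0.98), at 46.4 to 84.1 CPM in the 10 mice. Next came Plekhh2 (0.91), Pyroxd2 (0.90), Cyr61 (0.90), the endothelial and myeloid surface protein Cd93 (0.90), Mical2 (0.89), Sympk (0.89), Oasl1 (0.88), the lysosomal enzyme Galc (0.88), Arhgap6 (0.88), Tbc1d9 (0.88) and Acaa1b (0.88). In the opposite direction, 0.909% had r of -0.8 or lower. Vegfa, the vascular growth factor, was the least alike (r = -0.94, rho = -0.89) at 131 to 270 CPM, and it is on the list of AP-1 and Egr targets, where its r was the lowest. It was followed by Hoxc4 (-0.94), Cyp2j9 (-0.92), Qtrtd1 (-0.91) and Dmrt2 (-0.91). None of these 17 genes passed the edgeR test between genotypes. Without the 3 libraries that carried epididymis RNA, r with the profile ran from 0.896 to 0.956 for the 12 most alike genes. For the 5 least alike it ran from -0.979 to -0.906.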

How the data were processed

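RNA of epididymal fat from 10 mice was made into libraries by Ion AmpliSeq for the mouse transcriptome, with 1 amplicon per gene, and sequenced on an Ion S5 XL, per the labels' protocols. The authors deposited raw counts of reads for 23930 amplicons in each library. They also deposited reads-per-million (RPM) values, of which 100% came back as the raw count, to within 0.01 reads, after scaling by the library total. The edgeR test on those reads, added after the data were seen, called 1 gene and 0 immediate early genes. The build was mm9, per the submitters' processing notes. Aligner, read counter and amplicon positions: not given in the sources used here.

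Raw counts were analysed in R 4.3.3 with edgeR 4.0.16: filterByExpr (minimum count 10, minimum total count 15), TMM scaling (trimmed mean of M-values), and the two-sided quasi-likelihood test with robust dispersion and Benjamini-Hochberg adjustment over all tested genes at 0.05. DESeq2 1.42.0 and limma 3.58.1 were alternatives. Log2 CPM used a prior count of 2. The script was tested on simulated data. P-values measure the spread between mice. No molecular identifiers were used, so a floor of 3 reads covers counting error only. The genes and lists were chosen with earlier results of these data known. The text names the 10 genes, Srgn, in each pathway list up to 4 genes by smallest p and up to 3 by r with the member profile, and the 12 most and 5 least alike genes; some genes under this rule are not reported here. RefSeq promoters and GENCODE exon counts are of GRCm38.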

Additional observations from a re-analysis of the deposited data

Results flagged for a closer look

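Of the 20 groups of 5 libraries (10 genes in each genotype) looked at for a single mouse far from the rest, 1 stood out, where chance gives about 1 in 20. Jund in Srgn-knockout 2 was at 1.43 CPM, from 13 reads, and the next highest Srgn-knockout mouse was at 0.685 CPM. That gap was 0.808 of the range of the group, above the Dixon limit of 0.71 for 5 samples. With 0 to 13 reads in a library, Jund was below the low-count limit of the genotype test, and it did not pass in edgeR where it was tested, with no low-count filter and without the 3 libraries that carried epididymis RNA.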

How the results depend on the processing

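Immediate early genes past the threshold numbered 0 under all 19 alternatives, and at an unadjusted p under 0.05 they numbered 1 without wild-type 1 and 0 otherwise. Over all genes, where the count was 1, it was 3 with no low-count filter, 221 in DESeq2 (114 higher and 107 lower), 10 in limma-voom, 52 with the macrophage list mean as a covariate and 1 to 2 without single libraries. Pairs past the threshold, 3, numbered 1 by Spearman rho, 1 on values centred on genotype, 1 without TMM factors, 1 on log2(RPM + 1), 0 without the 3 libraries that carried epididymis RNA, 0 with the macrophage list mean regressed out and 1 to 3 without single libraries. Relations with lists and library measures, 23, numbered 2 by rho, 4 on centred values, 0 without the 3 libraries and 1 to 25 without single libraries, the lowest without wild-type 1 and then 3 without Srgn-knockout 2. Over 7 mice, fewer permutations lie behind each p.

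Signs turned for log2 differences that had not passed: Egr1 was 0.032 with upper-quartile factors, 0.094 by limma-trend, 0.26 without the 3 libraries, 0.33 with the covariate and -0.20 to 0.14 without single libraries. Junb was 0.023 without the 3 libraries and 0.19 with the covariate, Fos 0.41 and Atf3 0.0042 with the covariate. Without single libraries Jun ran from -0.040 to 0.13, Ier2 from -0.14 to 0.017, Dusp1 from -0.13 to 0.36 and Lif from -0.0057 to 0.87. Ier2 with Dusp1 had r = 0.0087 without the 2 mice farthest from the median. The causes were not tested. No paired analysis was possible because the replicate numbers only follow the order of the samples and pair no mice. Jund was close to the limit of detection, at 0 to 13 reads. The part of depth, amplicon and message level in this was not tested.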
